A study of Homo sapiens with 6 samples.

Results

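The genes described here were 33 genes of glycolysis and of the transcriptional response to low oxygen, taken from a list of symbols and mapped to the Ensembl identifiers of the deposited count table. The rule used no measured value, although the list was drawn up with earlier results of these data known. All 33 were found among the 63677 identifiers of the table, and all 33 passed the filter of more than 10 counts in total that left 21729 genes for testing. By role they comprised 4 transporters of glucose or lactate, 9 enzymes of upper glycolysis, 8 enzymes of lower glycolysis including lactate dehydrogenase, 3 kinases that set the flux through the pathway, and 9 genes of the hypoxia response.

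RNA was sequenced from UWB1.289, an established line of human ovarian carcinoma cells that lack functional BRCA1 (the labels give its genotype as WT), after 24 h with Olaparib, an inhibitor of the poly(ADP-ribose) polymerase PARP1, or with DMSO, its solvent. Each condition had 3 replicates, and no further samples were measured. Olaparib was used at 4 µM, as the sample labels and the methods of the paper state, while the series' design text has 10 µM. All samples came from this cell line in the same medium at 37°C, and the labels name no low-oxygen treatment, so the hypoxia genes were measured at the oxygen level of routine culture. The libraries held 35360458 to 39640775 counts, with TMM factors of 0.995 to 1.01. Values below are normalized counts (counts scaled to the mean TMM-adjusted library size) unless another scale is named, and a gene was called when the adjusted p of edgeR's quasi-likelihood test (Benjamini-Hochberg over the 21729 genes) was under 0.05. In these bulk samples fewer cells of a type and less RNA per cell cannot be told apart. With 3 samples a group, the smallest p an exact permutation test can reach is 0.1.

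Glycolysis converts glucose to pyruvate in the cytosol, and lactate dehydrogenase turns pyruvate into lactate, which leaves the cell through monocarboxylate transporters. When oxygen falls, prolyl hydroxylases of the EGLN family no longer mark the alpha subunits of the hypoxia-inducible factors (HIF) for degradation through VHL, and the stabilized factors induce many glycolytic genes together with genes for blood vessel growth, pH control and the hydroxylases themselves. Poorly supplied regions of solid tumors show this program, and cultured cancer cells commonly run glycolysis at a high rate also in the presence of oxygen.

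HIF dimers bind the core ACGTG or GCGTG, and the E-box CACGTG, the site of MYC and USF, contains the first of these cores. Promoter windows of 300 bases (250 before and 50 after a RefSeq transcription start, GRCh38.p14) were searched for these letters on both strands. Overlapping matches were merged, so that a palindromic E-box counted as 1 site. Windows were found for 29 of the 33 genes (55 windows, since some genes have several starts), and SLC2A3, SLC16A1, VEGFA and NDRG1 were not covered. ACGTG stood in 22 of the 55 windows (40%), beside 21.4% of all 35116 promoter windows, and CACGTG in 8 (14.5%), beside 7.26%. GCGTG, the other core, stood in 22 windows (40%), beside 36.5%. At least 2 separate ACGTG sites were found in 8 windows of 7 genes (14.5%), beside 3.4% of all windows. These matches are descriptions of the letters, not measured binding sites. The stretches below hold the most closely spaced of these pairs with up to 20 bases of flank, and show how the cores lie near the starts of 6 of these genes. Capitals mark the ACGTG core on either strand and whole CACGTG E-boxes.
LDHA (GRCh38.p14, chr11:18394358-18394514, plus strand): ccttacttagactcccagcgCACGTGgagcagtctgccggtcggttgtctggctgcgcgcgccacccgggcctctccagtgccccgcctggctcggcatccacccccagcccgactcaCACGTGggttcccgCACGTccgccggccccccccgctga
PGK1 (GRCh38.p14, chrX:78104026-78104089, plus strand): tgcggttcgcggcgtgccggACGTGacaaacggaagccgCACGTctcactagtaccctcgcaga
HK2 (GRCh38.p14, chr2:74834956-74835046, plus strand): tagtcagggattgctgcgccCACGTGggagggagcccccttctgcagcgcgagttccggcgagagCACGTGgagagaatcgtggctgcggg
SLC16A3 (GRCh38.p14, chr17:82228954-82229011, plus strand): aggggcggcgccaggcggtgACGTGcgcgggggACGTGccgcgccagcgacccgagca
ANKRD37 (GRCh38.p14, chr4:185396659-185396722, plus strand): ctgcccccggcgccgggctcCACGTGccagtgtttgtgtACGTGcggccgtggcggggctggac
PDK1 (GRCh38.p14, chr2:172556053-172556089, plus strand): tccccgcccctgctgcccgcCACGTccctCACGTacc

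LDHA showed 3 such sites between 185 and 69 bases before the start, and the pair of PGK1 lay between 202 and 179 bases before it. PGK1 had 1 further site, at base 29 after the start and outside the printed stretch. None of these 6 genes was called after Olaparib, beside 3.36% of all genes, and 6 genes are too few to set against that share. Their log2 fold changes were 0.00 for LDHA, 0.03 for PGK1, 0.00 for HK2, 0.01 for SLC16A3, 0.07 for ANKRD37 and -0.01 for PDK1.

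The genes of glycolysis changed little after Olaparib, and 1 hypoxia-response gene, NDRG1, rose. Of the 33 genes 1 was called (3.03%), beside 3.36% of all genes tested, a share near the background. Of the 33, 28 averaged at least 300 counts, and no share called was computed for genes of like depth. It was called higher (2.15% of all genes were), and 0 genes were called lower (1.21% of all genes were). With a fold above 1.2 added, 0 of the 33 were called, beside 1.21% of all genes (0.723% higher). DESeq2 also called 1 of these genes (4.36% of the genes it gave an adjusted p). At an unadjusted p under 0.05 there were 6 genes higher (GPI, PFKL, ALDOA, VEGFA, EGLN3 and NDRG1), beside 7.83% of all genes, and 0 lower, beside 6.97%. The 32 genes not called had adjusted p-values of at least 0.146 in the edgeR test.

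Over the 33 genes the log2 fold change had a median of 0.011, beside -0.0042 over all genes tested. The fold change was above 0 in 20 genes and below 0 in 13, while 48.6% of all genes were above 0. The Olaparib and DMSO samples did not overlap in 6 genes, each higher after Olaparib: GPI, PFKL, VEGFA, EGLN3, NDRG1 and ADM. Among all genes 10.0% were higher without overlap and 9.29% lower.

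**Figure D1:**
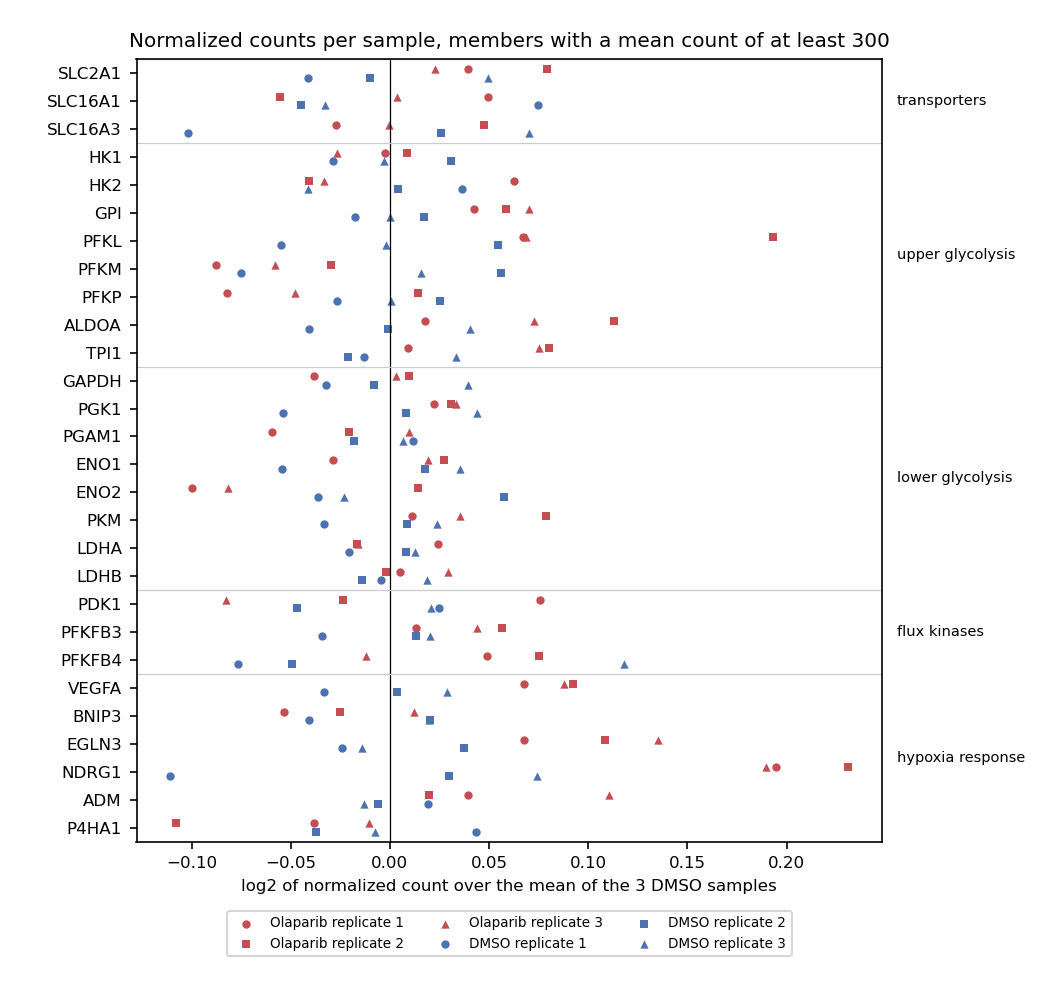
Each point is the log2 ratio of the normalized count of a sample to the mean of the 3 DMSO samples (x axis) for the 28 genes that averaged 300 counts or more (y axis, grouped by role), with Olaparib samples in red and DMSO samples in blue. Most genes lie within 0.1 of 0 in both groups. The Olaparib samples of NDRG1 lie to the right of its DMSO samples, and Olaparib replicate 2 of PFKL lies about as far right.

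These counts were deep enough to bound the change of most genes. The mean count was at least 300 in 28 genes, whose median standard error was 0.036 on the log2 scale. In 27 of these 28 the 95% interval lay within a fold of 1.2 either way, the exception being NDRG1, and in 20 it lay within a fold of 1.1. Without a limit on the mean count, the interval lay within a fold of 1.2 in 27 of the 33 genes (81.8%), beside 46.7% of all genes tested. All genes tested include many with few counts, and no share was computed for genes of like depth. The log2 fold changes of the 28 ran from -0.059 (PFKM) to 0.20 (NDRG1), and their 95% intervals from a fall of 10.9% (ENO2) to a rise of 22.0% (NDRG1).

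**Figure D2:**
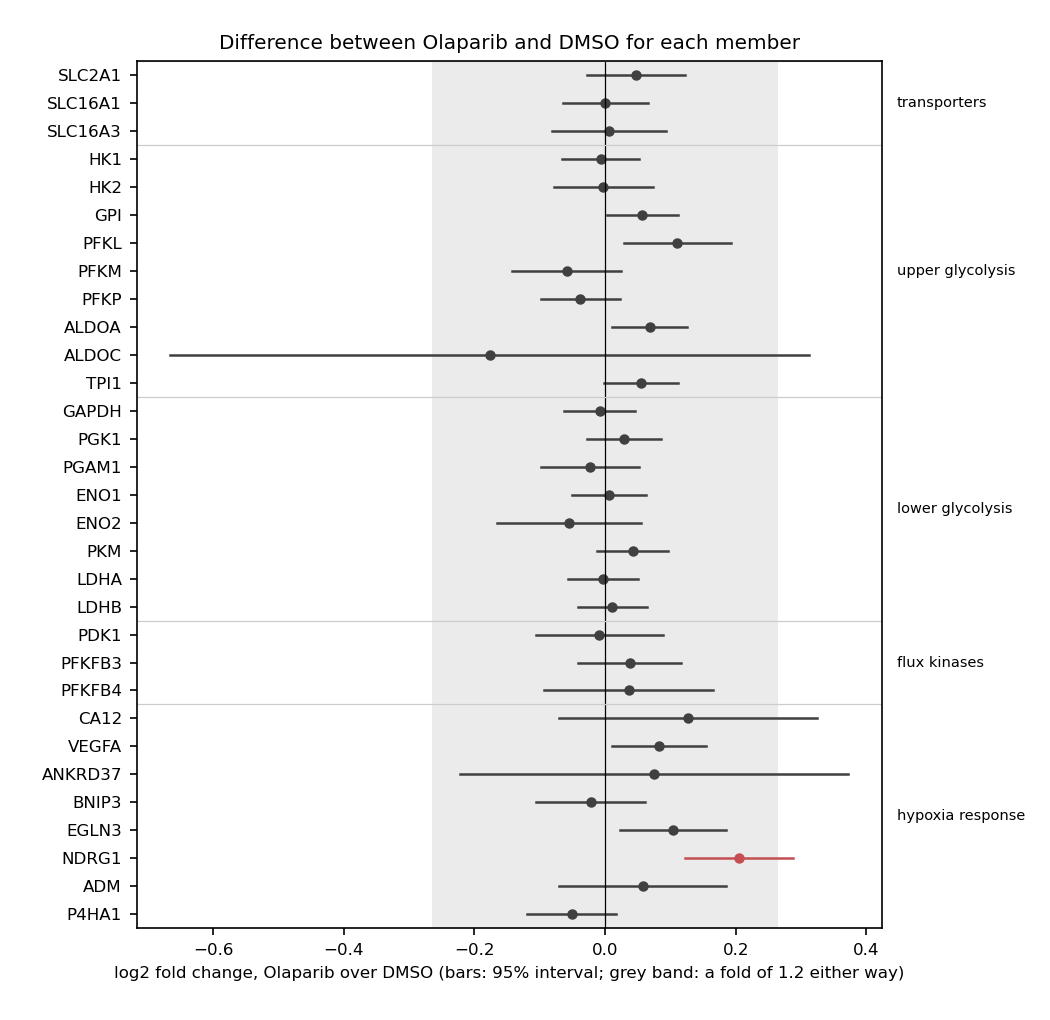
Points are log2 fold changes of Olaparib over DMSO from edgeR and bars their 95% intervals (x axis) for the 31 genes with more than 100 counts in total (y axis), NDRG1 in red. The grey band spans a fold of 1.2 either way, and the intervals of ALDOC, CA12 and ANKRD37, the least counted genes drawn, leave it, as does the upper end of that of NDRG1.

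NDRG1, a stress-responsive gene induced by low oxygen that is linked to differentiation and suppression of metastasis, lies on the minus strand of chromosome 8 (ENSG00000104419, GRCh38, chr8:133237175-133302022). The Olaparib samples held 3599, 3692 and 3588 normalized counts, and the DMSO samples 2913, 3211 and 3311. Every Olaparib sample was above every DMSO sample, and the DMSO samples were the more spread group, with replicate 1 lowest. The rise was 15.2% (95% interval 8.82% to 22.0%), a log2 fold change of 0.20 (SE 0.041, adjusted p = 0.0019 by edgeR). The adjusted p was 0.00035 with DESeq2. Without DMSO replicate 1 the log2 fold change of NDRG1 was 0.15 (adjusted p = 0.012). Leaving out each sample in turn gave log2 fold changes between 0.15 and 0.24 and adjusted p-values between 0.0019 and 0.017, all from edgeR.

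The other hypoxia-response genes are described next by function. VEGFA, the growth factor for blood vessels (ENSG00000112715, GRCh38, chr6:43770184-43786487, plus strand), held 3706, 3772 and 3759 normalized counts with Olaparib and 3457, 3546 and 3609 with DMSO. The groups did not overlap, but the difference of 5.88% (95% interval 0.71% to 11.3%) did not pass the test (adjusted p = 0.25 by edgeR). EGLN3, an oxygen-sensing prolyl hydroxylase that HIF itself induces (ENSG00000129521, chr14:33924227-34462774, minus strand), had the same pattern, with 2390, 2458 and 2504 normalized counts with Olaparib and 2242, 2340 and 2258 with DMSO. All 3 Olaparib samples were above the DMSO samples, by 7.48% on average (95% interval 1.63% to 13.7%), and the adjusted p was 0.17 by edgeR. ADM, the gene of the vasodilator peptide adrenomedullin, held 379, 373 and 398 normalized counts with Olaparib and 373, 367 and 365 with DMSO. Its groups were separate by less than 1 normalized count, and its 95% interval ran from -4.77% to 13.7%.

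BNIP3, which directs mitochondria to autophagy, and P4HA1, a subunit of the enzyme that hydroxylates collagen prolines, had values below 0 with overlapping groups. BNIP3 held 1852, 1889 and 1938 normalized counts with Olaparib and 1868, 1949 and 1949 with DMSO (95% interval -7.05% to 4.33%). P4HA1 held 5728, 5459 and 5840 with Olaparib and 6062, 5732 and 5852 with DMSO (95% interval -7.91% to 1.13%). The membrane carbonic anhydrase CA12, which helps control pH at the cell surface, held 171, 195 and 213 normalized counts with Olaparib and 161, 186 and 182 with DMSO (log2 fold change 0.13, SE 0.097). ANKRD37, an ankyrin repeat gene induced by HIF, had 449 counts over the 6 samples, and 40.4% of its exonic bases overlap UFSP2 on the other strand. Since the strand setting of the counting is not given in the sources used here, reads of the overlap could not be assigned with certainty.

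CA9, the carbonic anhydrase widely used as a marker of hypoxic tumor regions, was near the floor of 3 counts per library. Its raw counts were 1, 2 and 2 in the Olaparib samples and 1, 1 and 9 in the DMSO samples, and 35.7% of its exonic bases overlap ARHGEF39 on the other strand. The value of 9 in DMSO replicate 3 was the only one above the floor, and no fold change is given. CA9 and VEGFA, both HIF targets, thus stood far apart in level, at 0.061 and 26.2 RPKM (reads per kilobase of transcript and per 1000000 counts) in the DMSO samples.

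Among the 4 transporters 0 were called, beside 3.36% of all genes. SLC2A1 (GLUT1), the main glucose importer of most cancer cells, held 3593, 3694 and 3552 normalized counts with Olaparib and 3397, 3472 and 3618 with DMSO, overlapping groups with a 95% interval of -1.89% to 8.81%. SLC2A3 (GLUT3), a high-affinity glucose importer, had 12 counts in all, with raw counts of 5, 3 and 0 with Olaparib and 2, 2 and 0 with DMSO. SLC16A1 (MCT1) and SLC16A3 (MCT4) carry lactate and protons across the membrane, and MCT4 is the one that HIF induces. SLC16A1 held 12462, 11591 and 12071 normalized counts with Olaparib and 12681, 11673 and 11774 with DMSO, a difference of 0.00 on the log2 scale (95% interval -4.39% to 4.60%). SLC16A3 held 2419, 2547 and 2464 with Olaparib and 2297, 2509 and 2588 with DMSO (95% interval -5.45% to 6.68%). The signs of both lactate transporters turned with upper quartile scaling, at -0.0092 and -0.0027.

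In upper glycolysis, from hexokinase to triose phosphate isomerase, 4 of 9 genes were above 0 and 0 were called, beside 48.6% and 3.36% of all genes. PFKL, the liver-type subunit of phosphofructokinase at the committed step of the pathway (ENSG00000141959, GRCh38, chr21:44300051-44327376, plus strand), had the lowest adjusted p among the genes not called. It held 3260, 3558 and 3264 normalized counts with Olaparib and 2997, 3232 and 3108 with DMSO. The groups were separate, with replicate 2 the highest sample of each, and the difference was 7.96% (95% interval 1.99% to 14.3%, adjusted p = 0.15 by edgeR). GPI, which interconverts glucose 6-phosphate and fructose 6-phosphate, held 16204, 16390 and 16522 with Olaparib and 15547, 15926 and 15738 with DMSO. These groups were also separate, by 4.03% on average (95% interval 0.17% to 8.04%, adjusted p = 0.30 by edgeR).

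ALDOA, the aldolase that splits fructose 1,6-bisphosphate, held 59632, 63699 and 61952 normalized counts with Olaparib and 57263, 58874 and 60579 with DMSO. Olaparib replicate 1 lay within the DMSO range, and the difference was 4.85% (95% interval 0.76% to 9.10%, adjusted p = 0.22 by edgeR). Without Olaparib replicate 1 the log2 fold change of ALDOA was 0.095 and its adjusted p 0.024 by edgeR, which passes the test. Leaving out any other sample gave ALDOA adjusted p-values from 0.157 to 0.56 by edgeR, which do not. TPI1, which interconverts the triose phosphates, held 17930, 18831 and 18768 with Olaparib and 17656, 17557 and 18233 with DMSO (95% interval -0.13% to 8.08%).

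HK1 and HK2 trap glucose in the cell as glucose 6-phosphate, and HK2 is the isozyme that HIF induces. HK1 held 9321, 9391 and 9164 normalized counts with Olaparib and 9152, 9536 and 9317 with DMSO, and HK2 held 3961, 3687 and 3707 with Olaparib and 3890, 3805 and 3686 with DMSO. Both pairs of groups overlapped, with 95% intervals of -4.45% to 3.69% for HK1 and -5.29% to 5.17% for HK2. The muscle-type and platelet-type phosphofructokinase genes PFKM and PFKP had values of -3.99% and -2.61%, and neither passed the test (adjusted p = 0.56 and 0.61 by edgeR). ALDOC, the brain-type aldolase, had only 166 counts over the 6 samples and a 95% interval from -36.9% to 24.2%.

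In lower glycolysis, 4 of 8 genes were above 0 and 0 were called, beside 48.6% and 3.36% of all genes. The adjusted p of the 8 genes was at least 0.51 by edgeR. GAPDH, which makes the NADH-yielding step of glycolysis, differed by -0.58% (95% interval -4.26% to 3.25%), and ENO1, the main enolase, by 0.43% (-3.42% to 4.42%). PKM, the pyruvate kinase that makes the last ATP-yielding step, differed by 2.96% (-0.86% to 6.93%). PGK1 and PGAM1, the kinase and the mutase between GAPDH and enolase, differed by 2.01% (-1.88% to 6.05%) and by -1.59% (-6.57% to 3.65%). ENO2, the neuronal-type enolase, was the least counted of these genes, with 523, 566 and 530 normalized counts with Olaparib and 547, 583 and 552 with DMSO. LDHA, the lactate dehydrogenase subunit that HIF induces, held 29360, 28544 and 28550 normalized counts with Olaparib and 28462, 29035 and 29125 with DMSO. LDHB, the subunit of oxidative tissues, held 34511, 34352 and 35100 with Olaparib and 34282, 34060 and 34840 with DMSO. Both sets of groups overlapped, with 95% intervals of -3.82% to 3.57% for LDHA and -2.86% to 4.51% for LDHB.

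GAPDH and other members are copied widely as processed pseudogenes, which can share reads with them. The annotation listed 152 such copies for 15 of the genes, and 32 of the copies had enough counts to be tested. None was called by edgeR (lowest adjusted p 0.141). Counts assigned to the copies of a gene summed to at most 1.87% of the gene's own, separate count (PGAM1), apart from SLC2A3. Its copies summed to 91.7% of its very low count. These counts do not measure the reads that a gene and its copies share. In GAPDH, 17.6% of the exonic bases overlap a gene on the other strand (ENSG00000269968).

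Of the 3 flux kinases 0 were called, beside 3.36% of all genes. PDK1, which inactivates pyruvate dehydrogenase, held 1157, 1080 and 1037 normalized counts with Olaparib and 1117, 1063 and 1114 with DMSO (95% interval -7.05% to 6.29%). PFKFB3 and PFKFB4 make fructose 2,6-bisphosphate, the strongest activator of phosphofructokinase. PFKFB3 held 2529, 2606 and 2584 with Olaparib and 2448, 2529 and 2542 with DMSO (95% interval -2.81% to 8.43%). PFKFB4 held 422, 430 and 405 with Olaparib and 387, 394 and 443 with DMSO (95% interval -6.28% to 12.1%). In each of the 3 genes the groups overlapped.

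Levels per transcript length placed the enzymes of the lower pathway at the top. In the DMSO samples, GAPDH stood at 2366 ± 59.8 RPKM, ENO1 at 2122 ± 69.2, PKM at 1315 ± 26.7 and ALDOA at 959 ± 27.0 (SD, n = 3), with the length of the canonical transcript as the divisor. LDHB (705 ± 8.26 RPKM), TPI1 (352 ± 7.22) and LDHA (344 ± 4.29) followed. Most neighbours in this order differed by more than their SDs. Those that did not were TPI1 and LDHA, ADM (6.59 ± 0.078 RPKM) and ENO2 (6.53 ± 0.23), CA9 and SLC2A3, and the run of PFKL, NDRG1, SLC2A1, VEGFA and SLC16A3 between 28.6 and 25.3 RPKM. PGAM1, at 48.4 ± 0.53 RPKM, was the lowest enzyme of lower glycolysis apart from ENO2, and PFKP, at 112 ± 2.03, the highest phosphofructokinase. At the low end were PFKFB4 (3.11 RPKM), ANKRD37 (2.48), PDK1 (2.08), CA12 (0.77), ALDOC (0.48), CA9 (0.061) and SLC2A3 (0.0094). The listed transcript of PDK1 is 14072 bases long, which lowers its value on this scale.

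**Figure D3:**
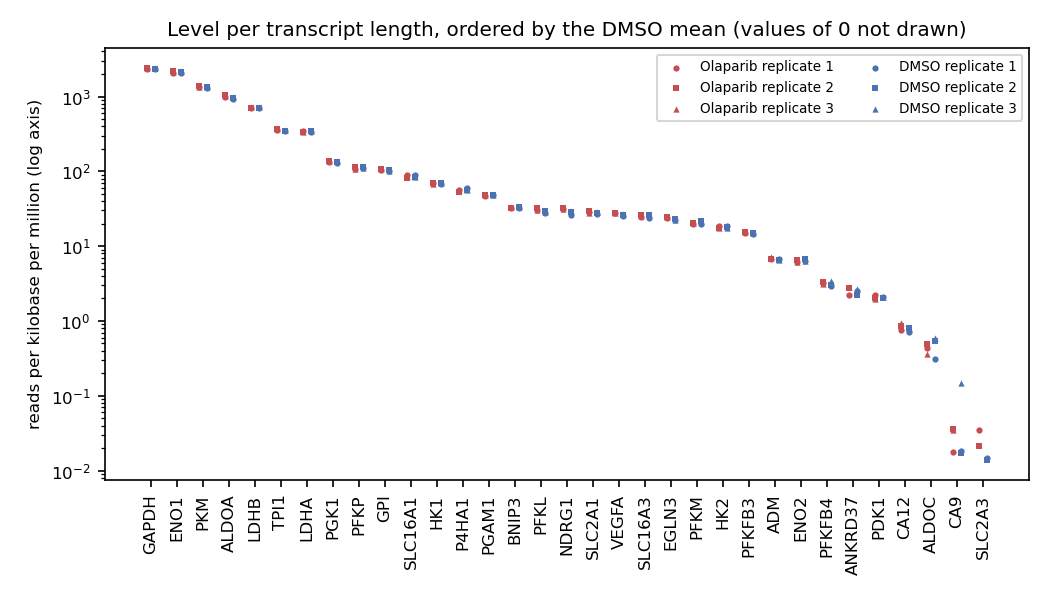
Points are RPKM values per sample (y axis, log scale) of the 33 genes ordered by their DMSO mean (x axis), Olaparib in red and DMSO in blue, with libraries at 0 not drawn. The levels span from GAPDH at 2366 to SLC2A3 at 0.0094 RPKM in the DMSO samples, and the red and blue points of a gene nearly coincide except in the lowest genes.

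The 33 genes together took 1.68% ± 0.028 of the counts of a library after Olaparib and 1.67% ± 0.022 after DMSO (SD, n = 3). The 17 enzymes from hexokinase to lactate dehydrogenase accounted for 1.57% ± 0.028 and 1.56% ± 0.023 of the counts. These shares differed by less than the spread between replicates. The 9 hypoxia genes took 0.048% ± 0.00077 after Olaparib and 0.047% ± 0.00024 after DMSO. That share was higher in every Olaparib sample (0.0475%, 0.0476% and 0.0489%) than in every DMSO sample (0.0464%, 0.0466% and 0.0469%), a separation that was lost without NDRG1. The 8 other hypoxia genes took 0.0380%, 0.0378% and 0.0393% with Olaparib and 0.0385%, 0.0380% and 0.0381% with DMSO, so the groups overlapped.

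Isozyme shares describe which gene of a family supplies its transcripts, per transcript length. HK1 made up 79.3% ± 0.66 of the hexokinase pair after Olaparib and 79.4% ± 0.65 after DMSO. LDHA made up 32.6% ± 0.49 and 32.8% ± 0.30 of the lactate dehydrogenase pair, SLC16A1 77.1% ± 1.1 and 77.2% ± 1.8 of the lactate transporter pair, and PFKFB3 82.7% ± 0.48 and 82.8% ± 0.87 of its pair (all SD, n = 3). These 4 shares overlapped between the conditions. ALDOA and ENO1 supplied over 99% of their families in every sample.

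The phosphofructokinase family differed in this respect. PFKL made up 19.3%, 19.6% and 18.9% of the family after Olaparib and 17.5%, 17.9% and 17.6% after DMSO. PFKP, the most abundant form, made up 68.1%, 68.0% and 68.4% after Olaparib and 69.9%, 68.9% and 69.3% after DMSO. Neither share overlapped between the conditions, with PFKL higher and PFKP lower after Olaparib, while the PFKM shares (12.5% ± 0.20 and 12.9% ± 0.29) did overlap. For scale, the normalized counts of 19.3% of all genes tested did not overlap between the conditions. The shares of a family sum to 100%, so they are not independent, and no test was made of them beyond the gene-level tests, which called no phosphofructokinase gene without a replicate block. With the block PFKL was called (adjusted p = 0.036 by edgeR).

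**Figure D4:**
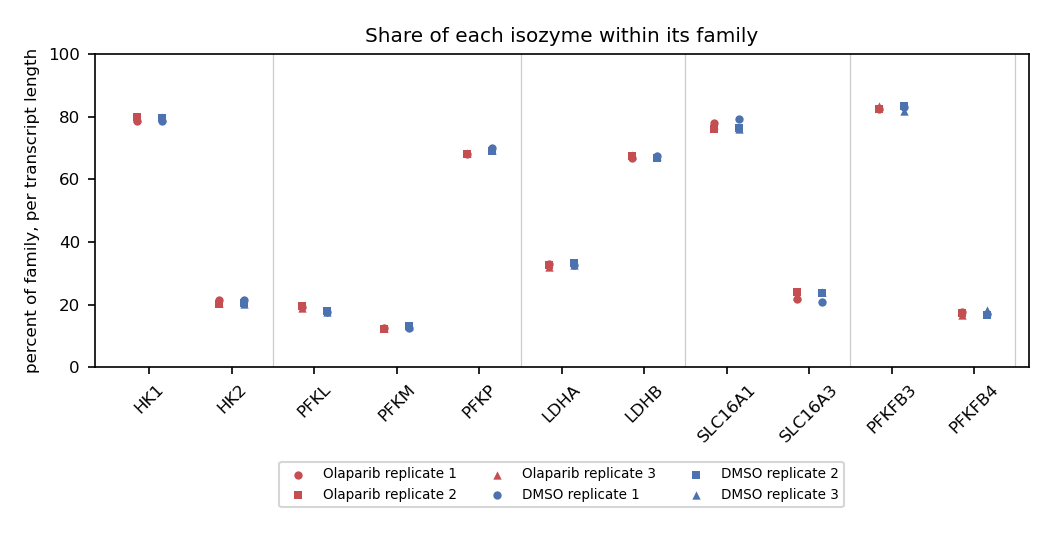
Points are the share of each of 11 isozymes within its family per transcript length and sample (y axis, percent), Olaparib in red and DMSO in blue, with grey lines between families. Olaparib and DMSO points lie at nearly the same height in each gene, and the largest gap is that of PFKL, at 19.3% and 17.7% on average.

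The order of the samples within a condition was shared by many of these genes. DMSO replicate 1 was the lowest DMSO sample in 22 of the 33 genes, beside 36.0% of all genes, and Olaparib replicate 1 the lowest Olaparib sample in 20, beside 34.9%. DMSO replicate 3 was the highest in 17 genes, beside 34.6% of all genes, and Olaparib replicate 2 in 18, beside 36.7%. The part of this order in the differences was not tested beyond leaving out each sample in turn. Without DMSO replicate 3, where CA9 fell under the filter, the remaining genes had a median log2 fold change of 0.044.

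The genes that sense oxygen and form HIF were examined as the upstream part of the pathway, with 17 of 17 listed genes tested. Of these 2 were called higher and 0 lower, beside 2.15% and 1.21% of all genes, and the median log2 fold change was -0.013. EPAS1, the gene of HIF-2 alpha, held 2364, 2364 and 2257 normalized counts with Olaparib and 1998, 2168 and 2095 with DMSO. The groups were separate (log2 fold change 0.16, SE 0.041, adjusted p = 0.025 by edgeR), but the call was lost without DMSO replicate 1 (adjusted p = 0.11), DMSO replicate 3 (0.095), Olaparib replicate 1 (0.060) or Olaparib replicate 2 (0.095). CITED4, which competes with HIF for the coactivators CBP and p300, held 1415, 1592 and 1500 with Olaparib and 1221, 1288 and 1309 with DMSO. It rose by 0.24 on the log2 scale (SE 0.047, adjusted p = 0.0017 by edgeR), and its adjusted p stayed at or below 0.029 without any single sample.

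HIF1A, the gene of HIF-1 alpha, whose protein is controlled mainly by its stability, held 5003, 4736 and 4910 normalized counts with Olaparib and 4540, 4488 and 4681 with DMSO. Its groups were separate, and the log2 fold change of 0.096 (SE 0.034) did not pass the test (adjusted p = 0.13 by edgeR). ARNT, the shared beta subunit, had a log2 fold change of -0.0079, and EGLN1, the main oxygen-sensing hydroxylase, one of -0.0049 (adjusted p = 0.95 and 0.97 by edgeR). VHL, the substrate receptor of the ubiquitin ligase that removes HIF alpha, held 1762, 1671 and 1672 with Olaparib and 1990, 1778 and 1761 with DMSO. DMSO replicate 1 was the high sample there, and the log2 fold change of -0.11 had an adjusted p of 0.20 by edgeR.

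In a further list of genes induced by hypoxia, IGFBP3, BHLHE40, P4HA2, LOX and TFRC were among the genes called higher, and NRN1 was called lower. Of 47 listed, 45 were tested, 6 were called higher and 1 lower, beside 2.15% and 1.21% of all genes, with a median log2 fold change of 0.020. Several of them also answer to other signals, such as TGF-beta, iron or growth factors. IGFBP3, which binds insulin-like growth factors, held 11062, 10760 and 10913 normalized counts with Olaparib and 7464, 7407 and 7520 with DMSO, the largest log2 fold change among the called genes of this list (log2 fold change 0.55, SE 0.029, adjusted p = 3.5e-15 by edgeR). BHLHE40, a transcriptional repressor of the clock and of hypoxia signaling, held 1296, 1161 and 1209 with Olaparib and 1025, 1047 and 983 with DMSO (0.26, SE 0.048, adjusted p = 0.00062 by edgeR). The calls of IGFBP3 and BHLHE40 held without any single sample.

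P4HA2, a paralog of P4HA1 in collagen prolyl hydroxylation, held 1183, 1320 and 1333 normalized counts with Olaparib and 1019, 1106 and 1116 with DMSO. Its rise of 0.24 on the log2 scale (SE 0.050, adjusted p = 0.0027 by edgeR) missed the threshold without DMSO replicate 1 (adjusted p = 0.054), while P4HA1 was at -0.051. LOX, which crosslinks collagen, was called at the margin (log2 fold change 0.18, SE 0.053, adjusted p = 0.048 by edgeR). The LOX call was lost without any one of the 6 samples (adjusted p 0.051 to 0.27) and with DESeq2 (adjusted p = 0.18). TFRC, the transferrin receptor, rose by 0.15 on the log2 scale (SE 0.033, adjusted p = 0.0068 by edgeR). The TFRC call was lost without DMSO replicate 3 (adjusted p = 0.093) and with DESeq2 (adjusted p = 0.18). NRN1, a neuronal growth factor gene, was the gene called lower (-0.19, SE 0.048, adjusted p = 0.017 by edgeR). The NRN1 call was lost without DMSO replicate 1 (adjusted p = 0.17), DMSO replicate 3 (0.087) or Olaparib replicate 3 (0.083).

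The lists of neighbouring pathways held few calls, as 3.36% of all genes were called and each list is short. Of the other glycolysis genes 25 of 33 were tested and 0 were called (median log2 fold change 0.050). For pyruvate entry into mitochondria 14 of 14 were tested and 0 called (0.0076), for the pentose phosphate pathway 10 of 11 and 0 (0.018), for glucose sensing 4 of 5 and 0 (0.041), and for acid-base transport 7 of 7 and 0 (0.012). In the branch to serine 5 of 5 genes were tested and PHGDH, its first enzyme, was called higher. PHGDH held 20890, 22100 and 22139 normalized counts with Olaparib and 19626, 19900 and 20860 with DMSO (log2 fold change 0.11, SE 0.029, adjusted p = 0.028 by edgeR), and the call was lost without DMSO replicate 1 (adjusted p = 0.17), DMSO replicate 2 (0.15), Olaparib replicate 2 (0.12) or Olaparib replicate 3 (0.20). TXNIP, the usual readout of glucose sensing, was not analysed here, because its current identifier is at 0 in all 6 libraries in a table counted on older identifiers.

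**Figure D5:**
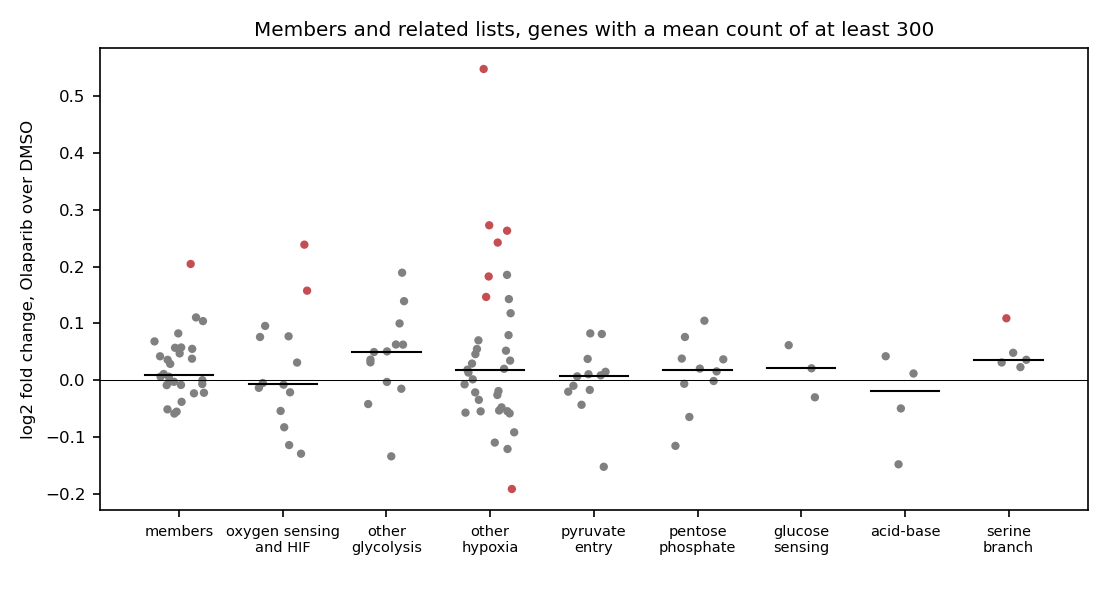
Points are log2 fold changes of Olaparib over DMSO (y axis) of those genes that averaged 300 counts or more, in the 33 genes and in 8 related lists (x axis), red where the adjusted p was under 0.05, with a bar at the median of the drawn genes. The medians lie near 0, and the highest point is IGFBP3 at 0.55 among the other hypoxia genes.

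The epithelial identity of the line was present in all samples. The summed level of 10 epithelial and ovarian markers was 13056 to 13729 CPM (counts per 1000000) after Olaparib and 12878 to 13321 after DMSO, although WT1, a marker of serous ovarian carcinoma, had only 8 counts in total. PAX8 was the epithelial marker called (log2 fold change 0.10, adjusted p = 0.040 by edgeR), a call lost without any of the samples except Olaparib replicate 1. Markers of fibroblasts summed to 43.9 to 49.5 CPM after Olaparib and 45.9 to 49.2 after DMSO, of endothelial cells to 45.6 to 46.5 and 45.6 to 49.3, of leukocytes to 3.72 to 4.27 and 2.99 to 3.80, and of erythroid cells to at most 0.053 and 0.076. The endothelial marker VWF was called higher (64, 70 and 69 normalized counts with Olaparib and 40, 42 and 44 with DMSO, adjusted p = 0.011 by edgeR). It was the 1 called of 5 endothelial markers tested, of which 3 were above 0 and 2 below. The part of these markers in the values above was not tested.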

How the data were processed

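RNA of 6 samples (3 Olaparib, 3 DMSO, grouped by the sample labels) was analysed from the read counts per gene that the authors deposited, whole numbers without normalization. The authors trimmed reads with Trimmomatic, aligned them to GRCh38 with STAR, marked duplicates with Picard and counted genes with featureCounts. The strand setting of the counting is not given in the sources used here. The libraries were poly(A)-selected, and the paper calls the replicates independent.

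Genes with more than 10 counts in total were kept (21729 of 63677), normalized by TMM and tested with edgeR 4.0.16 (quasi-likelihood, treatment as the only term, Benjamini-Hochberg) in R 4.3.3. The script was tested on simulated data. DESeq2 1.42.0, limma voom (limma 3.58.1), other scalings, other filters, a replicate block, summed pseudogenes and leaving out each sample were alternatives. SEs were derived from the fold change and the F statistic, and intervals are at 95%. Lengths, positions and overlaps came from GENCODE release 44 by identifier, which holds 81.9% of the identifiers. The table appears to use an older annotation (RBM8A, which all cells use, is at 0 under its current identifier), so genes renumbered since are missed. Promoter sequences came from RefSeq (GRCh38.p14). Replicates differed by more than sampling noise (chi-square over its degrees of freedom 1.81 to 4.11 over 15525 genes).

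All 33 genes are named, with the genes of the related lists past an adjusted p of 0.05 and HIF1A, EPAS1, ARNT, EGLN1 and VHL whatever their value, and pseudogenes as counts. The genes and the related lists were chosen with earlier results of these data known. The values of 1 further called gene are not reported here. VWF and WT1 were named after their values were seen.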

Additional observations from a re-analysis of the deposited data

How the results depend on the processing

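The call of NDRG1 and its direction held in all 14 alternative fits. Its log2 fold change there ran from 0.155 (without DMSO replicate 1) to 0.242 (without DMSO replicate 3). Of the 31 genes that could be fitted in all 14, 20 kept their direction and 11 changed sign in some, while SLC2A3 and CA9 fell under the filter in some fits. With the replicate number as a block, 3 genes were called higher in place of 1, PFKL (0.11, adjusted p = 0.036 by edgeR) and ALDOA (0.068, 0.038) being added, and the counts over all genes rose from 467 to 805 higher and from 263 to 517 lower. Same-numbered samples did not deviate together (correlations -0.078, 0.10 and -0.10), and differently numbered samples had correlations from -0.162 to 0.222. With 3 samples a group these correlations cannot decide whether the numbers pair the samples. DESeq2 called 154 genes lower, and at an adjusted p under 0.01 there were 242 higher and 105 lower. Leaving out each sample gave 1 to 2 of the 33 genes called higher (2 without Olaparib replicate 1), a median of 0.00777 to 0.0438, and 270 to 567 genes called higher and 127 to 303 lower over all genes. The count over all genes moved by over 1.5 times without Olaparib replicate 3 (307 higher, 132 lower), DMSO replicate 2 (271, 127), DMSO replicate 3 (270, 131) and, for the lower genes, DMSO replicate 1 (175), and the cause was not tested. Without NDRG1, an alternative chosen after seeing the data, the library share of the hypoxia genes differed by 0.00019 percentage points between the conditions in place of 0.00141. No gene of the 33 was called lower, or past a fold of 1.2, in any alternative.

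Signs of values near 0 turned. Upper quartile scaling, which moved the median of all genes to -0.0132, gave SLC16A1 -0.00915, SLC16A3 -0.00265 and ENO1 -0.00279, and edgeR's filterByExpr gave SLC16A1 -0.00238. Over the fits that left out a sample the log2 fold change of SLC16A1 ran from -0.0236 to 0.0403, of SLC16A3 from -0.0397 to 0.0413, of HK1 from -0.019 to 0.0089, of HK2 from -0.035 to 0.0171, of ENO1 from -0.0184 to 0.0252, of GAPDH from -0.0223 to 0.00996, of LDHA from -0.0145 to 0.00456, of LDHB from -0.000217 to 0.0185, of PDK1 from -0.0508 to 0.0253, of ANKRD37 from -0.00239 to 0.185 and of ALDOC from -0.396 to 0.0068. Depth limits CA9, SLC2A3, ALDOC, ANKRD37 and CA12, whose 95% intervals reach past a fold of 1.2.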
